A study of Mus musculus with 11 samples.

Results

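The endothelium of tumour-infiltrated bone marrow (met) was compared with that of the adjacent tumour-free marrow (non-met) in the same animals. Members were taken from the sample labels, with 3 met and 6 non-met libraries, so 9 of the 11 libraries of the series. The remaining 2 are controls from healthy mice, whose levels are given beside some results. All mice were wild-type BALB/c of 8 to 10 weeks. The tumour-burdened animals carried 4T1.2 mammary cancer cells expressing RFP, a tumour line derived from the same strain, and no other treatment is given in the labels. Bones were dissected under RFP fluorescence into infiltrated and adjacent areas, and CD31hi EMCNhi endothelial cells were sorted from both and from age-matched bones without tumour, with haematopoietic cells gated out by CD45 and Ter-119. A mouse pool held 1 to 4 animals, a library 700 to 5500 cells, and the tumour model is a single transplanted line. The mouse pool of each library is labelled. Burdened pool 2 gave met 1 with non-met 2 and non-met 6, pool 3 gave met 2 with non-met 3, and pool 4 gave met 3 with non-met 4. Pool 1 gave non-met 1 and non-met 5 and no met library. The comparison therefore holds 4 linked differences, that is a met minus a non-met library of the same animals, from 3 pools. A gene is called of one direction here when its 4 linked differences in log2 CPM have the same sign. CPM are read counts scaled by TMM to a common library total, with a prior count of 2 on the log2 scale.

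Endothelial cells with high CD31 and high endomucin line the type H capillaries of the bone metaphysis, which lie close to osteoprogenitors and couple vessel growth to bone formation, whereas the sinusoids deeper in the marrow express less of both proteins. Growing vessels deposit a basement membrane of type IV collagen, laminins, nidogens and perlecan around the endothelial tube. Endothelium exposed to interferon transcribes guanylate-binding proteins, antigen presentation genes and the CXCR3 ligands *Cxcl9*, *Cxcl10* and *Cxcl11*, which attract activated T cells. Many of these genes carry an interferon-stimulated response element (ISRE) near their start, to which STAT and IRF proteins bind.

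The ISRE is shown because the interferon genes below were among those of one direction. Its core was searched as GAAANNGAA on both strands of the RefSeq promoter windows of GRCm38.p6, from 250 bases before to 50 bases after the gene start. The core was found in 12 of 22 windows of the type I interferon-stimulated list (54.5%), in 8 of 10 windows of the interferon-inducible GTPases (80.0%), in 4 of 14 of MHC class I presentation (28.6%) and in none of 5 of MHC class II presentation, compared with 8.56% of all 32851 windows. The gamma-activated site, TTCNNNGAA, which can overlap the ISRE core, was in 5 of the 10 GTPase windows and in 8.30% of all windows. It was in 4 of the 22 type I windows (18.2%), in 1 of the 14 of MHC class I (7.14%) and in none of the 5 of class II. These matches describe letters and not bound sites, and the lists were drawn up from genes known to respond to interferon. The windows of a chemokine, of 3 GTPases and of a ubiquitin-like modifier are printed 5′ to 3′ on the strand of the gene, with the core in capitals. They lie at chr5:92348840-92349139 for *Cxcl10* (minus strand), chr3:142620413-142620712 for *Gbp2* (plus), chr11:58199306-58199605 for *Igtp* (plus), chr11:48871371-48871670 for *Irgm1* (minus) and chr4:156200769-156201068 for *Isg15* (minus). The core begins 213 bases before the start of *Cxcl10*, 58 before that of *Gbp2*, where it lies on the opposite strand, and 34 before that of *Igtp*. In *Irgm1* a pair of overlapping cores begins 30 and 24 bases before the start, and in *Isg15* there are 3, from 78, 72 and 66 bases.
Cxcl10: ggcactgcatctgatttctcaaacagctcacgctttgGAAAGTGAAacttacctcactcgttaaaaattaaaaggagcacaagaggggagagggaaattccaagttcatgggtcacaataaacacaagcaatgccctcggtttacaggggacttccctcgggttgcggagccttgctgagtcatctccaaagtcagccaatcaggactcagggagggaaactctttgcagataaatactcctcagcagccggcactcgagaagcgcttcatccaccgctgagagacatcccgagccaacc
Gbp2: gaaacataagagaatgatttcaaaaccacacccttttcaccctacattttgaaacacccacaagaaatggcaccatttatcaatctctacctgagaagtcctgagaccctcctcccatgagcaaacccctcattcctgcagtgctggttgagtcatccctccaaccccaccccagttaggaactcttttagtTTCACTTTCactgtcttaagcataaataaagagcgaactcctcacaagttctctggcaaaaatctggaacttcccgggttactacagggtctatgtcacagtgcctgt
Igtp: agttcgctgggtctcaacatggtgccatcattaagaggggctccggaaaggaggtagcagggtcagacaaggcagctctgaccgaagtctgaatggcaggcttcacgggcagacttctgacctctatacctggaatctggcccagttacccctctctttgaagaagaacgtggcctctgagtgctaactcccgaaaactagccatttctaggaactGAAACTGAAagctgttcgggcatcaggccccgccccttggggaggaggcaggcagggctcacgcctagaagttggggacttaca
Irgm1: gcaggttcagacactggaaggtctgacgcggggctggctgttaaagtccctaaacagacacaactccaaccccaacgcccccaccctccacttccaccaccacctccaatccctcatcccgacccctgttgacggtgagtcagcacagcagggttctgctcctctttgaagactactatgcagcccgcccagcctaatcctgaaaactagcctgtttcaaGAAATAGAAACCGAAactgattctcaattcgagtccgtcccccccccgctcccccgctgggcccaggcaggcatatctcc
Isg15: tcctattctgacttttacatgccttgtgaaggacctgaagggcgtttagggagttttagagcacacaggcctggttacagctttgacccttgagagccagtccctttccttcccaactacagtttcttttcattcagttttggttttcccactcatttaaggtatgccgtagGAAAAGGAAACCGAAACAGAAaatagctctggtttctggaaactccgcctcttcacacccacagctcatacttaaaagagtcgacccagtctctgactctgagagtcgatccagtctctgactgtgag

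Total counts were 733342 (non-met 4) to 7683451 in the non-met and 2547520 to 8771860 in the met libraries, so that 3 reads, taken as a floor, correspond to 4.76 CPM in the shallowest and 0.352 CPM in the deepest of the 9. Intervals and floors of this kind cover counting error only, since the reads carry no molecular identifiers. The sort markers *Pecam1* (CD31) and *Emcn* were present in every library, at no less than 972 and 351 CPM. *Krt8*, *Krt18* and *Krt19*, keratins of epithelium and of mammary tumour cells, summed to 19.8, 68.0 and 9.75 CPM in met 1, 2 and 3, and to 1.44, 4.94, 83.1, 63.3, 25.5 and 83.5 CPM in non-met 1 to 6, compared with 0.782 and 1.59 CPM in the controls. In bulk libraries, fewer cells of a type and less RNA per cell cannot be told apart.

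The size of the linked differences was first compared with that between libraries of the same area and the same animals. Over the 11948 genes tested, the median absolute difference was 1.79 for met 1 against non-met 2, 1.66 against non-met 6, 1.34 for met 2 against non-met 3 and 2.17 for met 3 against non-met 4 (log2). Between the non-met libraries of pool 1 it was 1.45, and between those of pool 2 it was 1.80. Infiltrated and adjacent endothelium of the same animals therefore differed in size about as much as a pair of libraries of adjacent endothelium did. Among the 506 genes with a mean of at least 8 log2 CPM over the 9 libraries, the linked medians were 0.56 to 0.63 and the same-area medians 0.57 and 0.52. Genes of 2 to 4 log2 CPM had linked medians of 3.06 to 4.13 and same-area medians of 4.55 and 3.05, so that a single difference of this size at a low level is not unusual between libraries of one area.

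**Figure D1:**
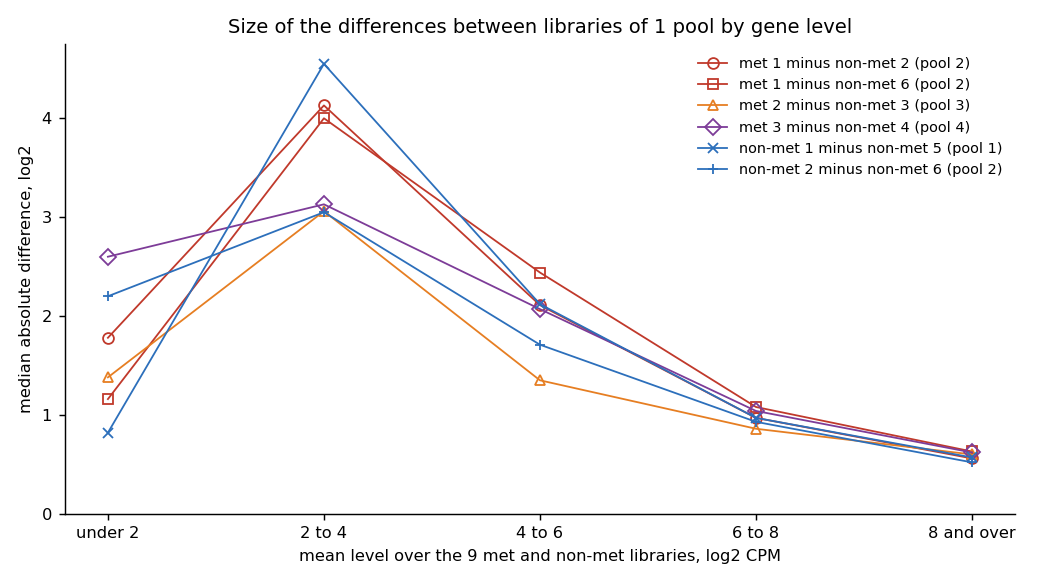
Median absolute difference (log2) between libraries of 1 mouse pool, by the mean level of the gene (log2 CPM). Met minus non-met differences (open symbols) and differences between non-met libraries (crosses) overlap, with medians of 0.52 to 0.63 at 8 log2 CPM and over.

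Of the 11948 genes, 908 were higher in met in all 4 linked differences (7.60%) and 677 were lower (5.67%). With RLE scaling the counts were 821 and 766, and with library size scaling 1002 and 589. The scalings moved the median log2 fold change of all genes from 0.08 to −0.09 and 0.14. Requiring each difference to reach 1 on the log2 scale left 302 genes higher and 199 lower. The 3 pools cannot give a sign test P below 0.25, so direction is reported as a description. The lowest of the 3 met values exceeded the highest of the 6 non-met values for 184 genes (1.54%), and the reverse was found for 53 (0.444%). Without non-met 2, which leaves 3 linked differences, 1277 genes were higher and 938 lower.

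The unpaired contrast gave another set. VoomLmFit with sample weights called 34 genes higher (0.285% of those tested) and 17 lower (0.142%) in met at an adjusted P under 0.05. Of these 51, 19 had 4 linked differences with the sign of the fit, 16 of them higher and 3 lower, and 32 had not. The sign of the fit was found for 47 of the 51 in pool 4 (met 3 minus non-met 4), 34 in pool 3, and in pool 2 for 41 against non-met 2 and 31 against non-met 6. Met 3 carried the largest share of the weight of its group in 42 of the 51. Of the 51, 45 were among the 506 genes of at least 8 log2 CPM, and none lay at 4 to 8 log2 CPM. The shares of 0.285% and 0.142% printed beside called list members below cover genes of every level. A single met library held over 90% of the met weight in 13 of the 32 genes, in 5 of the 19 and in 26 of all genes tested. Without met 3 the number called was 16, without non-met 5 it was 32 and without control 1 it was 87. With mouse pool as a random block in the fit of 3 groups, voomLmFit called 52 genes, 35 of them higher and 50 among the 51. With mouse pool as a replicate block, so that met is set against non-met within animals, voomLmFit called 28 of 9432 genes, 18 of them among the 51. Of these 18, 5 had the opposite sign, called higher without the block and lower with it (*Eef1a1*, *Itm2b*, *Ctsl*, *Ctsb* and *CYTB*). Limma-trend, which gives no weights to single libraries, called 9 genes, of which 8 were of one direction, and 7 with the pool as block, of which 6 were. The balance of directions depended on the fit. The block gave 4 higher and 24 lower in voomLmFit, limma-trend 3 and 6, the quasi-likelihood test 3 and 7 and DESeq2 21 and 303, whereas voomLmFit without sample weights called 44 of 63 higher, with summed libraries 15 of 24 and with library size scaling 45 of 61. The 7 of limma-trend with the block were *Col4a1* and *Col4a2*, higher in met, and *Fos*, *Malat1*, *Fabp4*, *S100a8* and *S100a9*, lower.

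**Figure D2:**
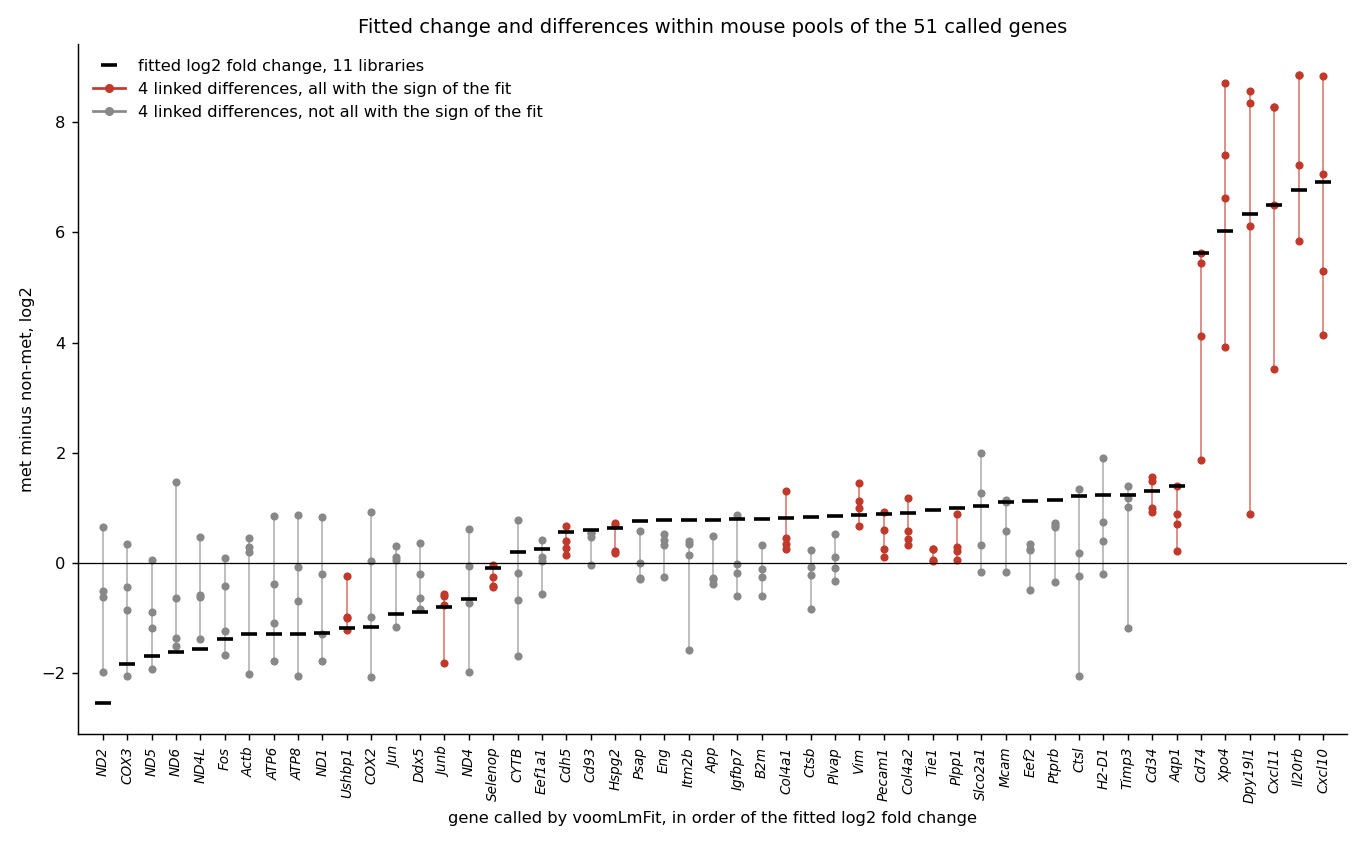
Fitted log2 fold change (bar) of the 51 genes called by voomLmFit, with the 4 linked differences of each gene (points, log2, joined by a line from lowest to highest). The 19 genes in red have 4 differences with the sign of the fit and the 32 in grey have not.

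The vascular basement membrane was the list with the largest share of members of one direction. All 14 listed genes had a fitted value above 0 (median log2 fold change 0.74, against 0.08 over all genes tested), 3 were called higher (0.285% of all genes) and none lower, and 8 were higher in each linked difference (57.1%, against 7.60% of all genes), a count that was the same under both other scalings. The list median was 0.43 and 0.79 in pool 2, 0.25 in pool 3 and 1.32 in pool 4, and 0.10 and 0.52 between non-met libraries of one pool. *Col4a1* (chr8:11198423-11312889), a chain of type IV collagen, had 8295, 9930 and 12265 CPM in met 1, 2 and 3, and 4226, 5485 and 8332 CPM as the lowest, median and highest non-met value. The groups overlapped in 1 library, since non-met 3 lay just above met 1, but within pool 3 met 2 was above non-met 3. The linked differences were 0.46, 0.34, 0.25 and 1.31, and those between non-met libraries 0.05 and −0.12. *Col4a1* rose by the unpaired fit (log2 fold change 0.81, SE 0.0704, adjusted P = 6.18e-08, voomLmFit) and with the pool as block in limma-trend (0.63, adjusted P = 0.00204), whereas limma-trend without the block did not call it (adjusted P = 0.932). Met 1 held 99.8% of the met weight in the unpaired fit. Its fitted value was −0.02 without control 1, −0.001 without control 2 and −0.007 without the filter on low counts, and the call was also lost without met 1 (adjusted P = 0.75), met 3 (0.095), non-met 5 (0.842) or non-met 6 (0.0824).

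*Col4a2*, the partner chain of the same collagen trimer, had 5139, 7380 and 9002 CPM in met and 2888, 3614 and 5872 CPM as the lowest, median and highest in non-met. Again non-met 3 was the only non-met library within the range of met. The linked differences were 0.44, 0.57, 0.33 and 1.17, and *Col4a2* passed with the pool as block in limma-trend (0.66, adjusted P = 0.0262) and in the unpaired fit (0.90, SE 0.174, adjusted P = 0.011, voomLmFit). The unpaired call was lost without non-met 3 (adjusted P = 0.257), met 2 (0.327) or met 3 (0.11). The annotated ends of both collagen genes overlap and no source gives the strand setting of the counting, which leaves reads in that stretch uncertain. *Hspg2*, which encodes perlecan, rose in the unpaired fit (0.63, SE 0.122, adjusted P = 0.0119, voomLmFit) but not with the pool as block (adjusted P = 1.00), with linked differences of 0.22, 0.73, 0.18 and 0.68. Its met libraries, at 3748, 4228 and 4089 CPM, lay above the highest non-met library, at 3738 CPM, and the unpaired call held when any 1 library was left out, with values from 0.364 without non-met 1 to 1.435 without non-met 2.

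The other 5 members of one direction were not called by the unpaired voomLmFit. They were the laminin chains *Lama4* and *Lamb1*, the nidogen *Nid2*, the collagen *Col18a1*, from which endostatin is cut, and *Sparc*, a collagen-binding matrix protein. *Lama4* had 482, 362 and 468 CPM in met and 92.3, 180.0 and 391 CPM as the lowest, median and highest in non-met. *Nid2* had 589, 698 and 527 CPM in met and 136, 260.0 and 449 CPM in non-met, and its groups did not overlap. *Col18a1* had 1284, 1202 and 1546 CPM in met and 210.0, 607 and 877 CPM in non-met, also without overlap, and missed the threshold (log2 fold change 1.16, adjusted P = 0.0669, voomLmFit). It was called in 7 of 26 alternative settings of fit, scaling, filter and libraries. The smallest linked difference of these 5 genes was 0.24, in *Sparc*, and the largest 3.55, in *Lamb1*. In the controls *Col18a1* had 167 and 32.0 CPM.

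**Figure D3:**
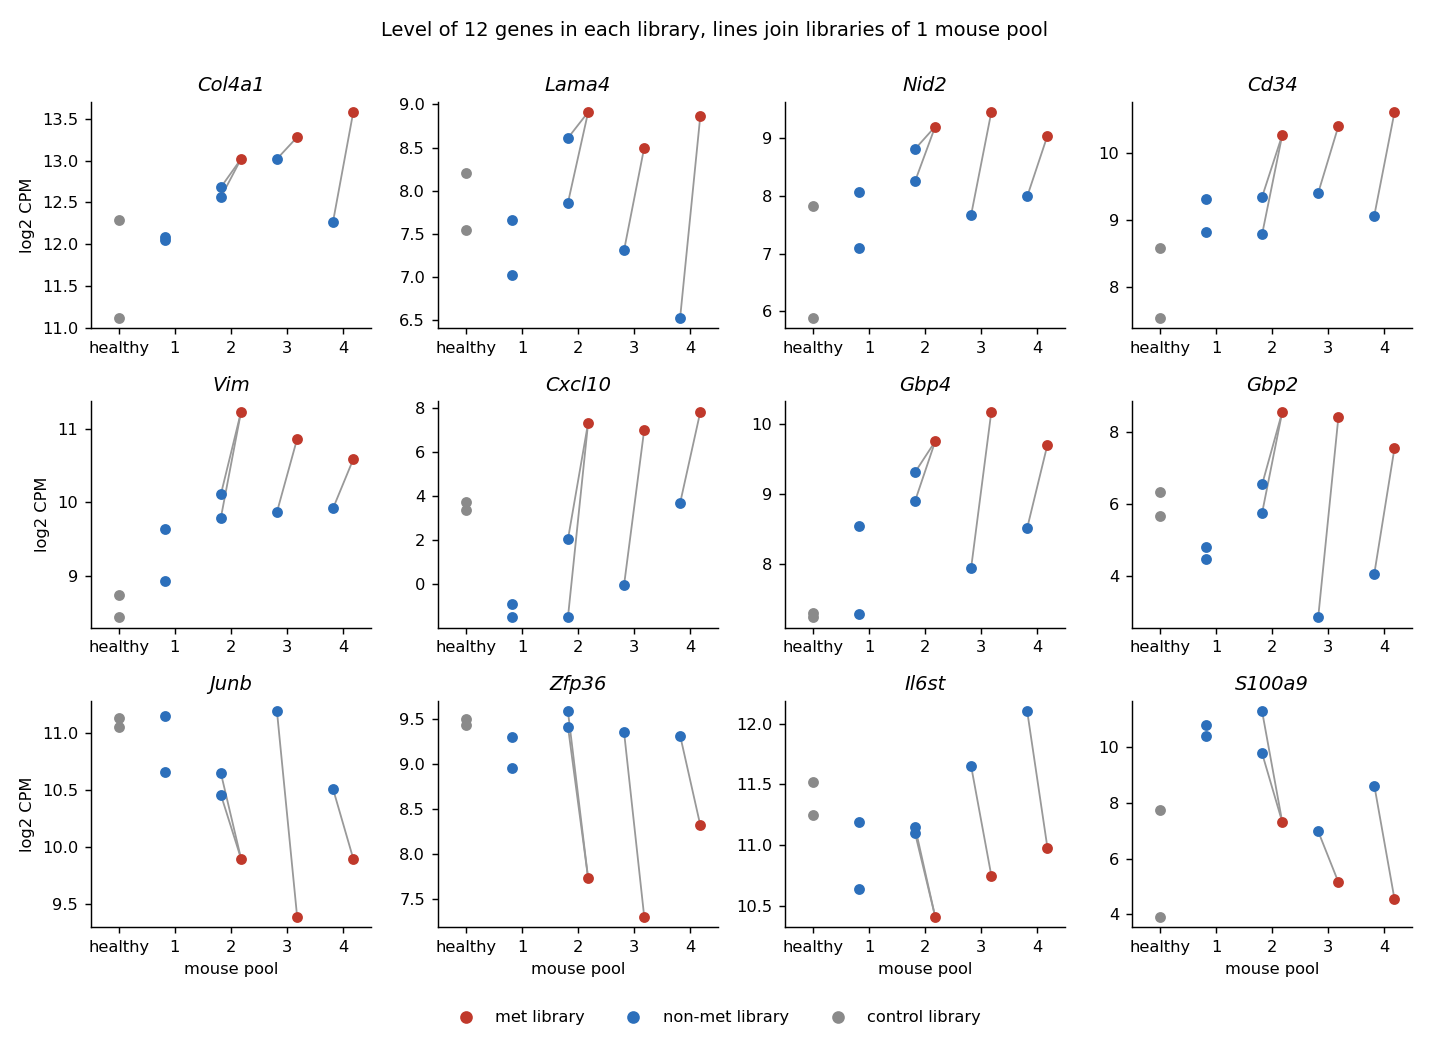
Level (log2 CPM, each panel with its own axis) of 12 genes in each library by mouse pool. Lines join met (red) and non-met (blue) libraries of the same animals. The genes were picked from those of one direction, so by choice every line slopes the same way within a gene, upwards in the first 8 panels and downwards in the last 4.

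Interferon-inducible GTPases, which act against intracellular pathogens, had the second largest share. Of 12 tested, none was called, all had a fitted value above 0 (median 2.61, against 0.08 over all genes), and 6 were higher in every linked difference (6 of 12, against 7.60% of all genes), namely *Gbp2*, *Gbp4*, *Gbp6*, *Gbp7*, *Igtp* and *Irgm1*. The list median was 1.94 and 1.47 in pool 2, 4.02 in pool 3 and 1.47 in pool 4, and −0.32 and −1.01 between non-met libraries of one pool. *Gbp4*, the member with the highest level, had 861, 1149 and 833 CPM in met and 157, 369 and 633 CPM as the lowest, median and highest in non-met. These groups did not overlap, and the controls, at 159 and 151 CPM, stood near the lowest non-met library. Its log2 fold change of 1.25 (SE 0.294) missed the threshold (adjusted P = 0.0607, voomLmFit), and DESeq2 gave an adjusted P of 0.19. *Gbp4* was called in 7 of 26 alternative settings of fit, scaling, filter and libraries. *Gbp2* had 376, 340.0 and 187 CPM in met and 6.84, 24.7 and 92.8 CPM in non-met, with linked differences of 2.02, 2.81, 5.56 and 3.49. DESeq2 called *Gbp2* (adjusted P = 0.0193) and voomLmFit did not (adjusted P = 0.368). For *Igtp* the difference in pool 4 was 0.42 while the others were 1.95 to 4.89, and non-met 4, at 119 CPM, lay above met 2, at 74.9 CPM.

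Type I interferon-stimulated genes were less uniform. Of 26 tested none was called, 18 had a fitted value above 0 (median 1.02), and 3 were of one direction, *Isg15*, the XIAP-binding factor *Xaf1* and *Zbp1*, a sensor of Z-form nucleic acid, a share of 11.5% against 7.60% of all genes. The list median was 0.00 and −0.02 in pool 2, 1.73 in pool 3 and 3.09 in pool 4. *Stat2*, a subunit of the interferon signalling complex, had linked differences of −0.40, −0.29, −0.92 and 2.83. *Isg15* had 138, 44.3 and 26.8 CPM in met and 0, 0.311 and 30.5 CPM in non-met, where 3 of the 6 libraries had no read.

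Among chemokine ligands 9 of 18 could be tested, 2 were called higher (against 0.285% of all genes) and 3 were of one direction (33.3%, against 7.60%), which were the 3 CXCR3 ligands. *Cxcl10* had 162, 131 and 228 CPM in met, and 0, 0.401 and 12.7 CPM as the lowest, median and highest in non-met. The highest non-met library was non-met 4, the shallowest, and the controls had 9.92 and 12.9 CPM. Linked differences were 5.30, 8.83, 7.06 and 4.13, compared with 0.59 and 3.53 between non-met libraries of one pool. *Cxcl10* rose in the unpaired fit (6.92, SE 1.20, adjusted P = 0.00294, voomLmFit), lost the call without met 3 (adjusted P = 0.0514) and with the pool as block (6.03, adjusted P = 1.00). *Cxcl11*, at 111, 88.5 and 24.4 CPM in met and at most 1.81 CPM in non-met, also rose (6.49, SE 1.34, adjusted P = 0.0223, voomLmFit) and lost the call with the block (5.57, adjusted P = 1.00). *Cxcl11* missed the threshold as well when any of 6 single libraries was left out (met 1, met 2, non-met 1, non-met 2, non-met 5 or non-met 6), with the highest adjusted P of 0.089 without met 2. Both overlap the span of *Art3*. *Cxcl9* was present in every library, with 598, 623 and 239 CPM in met and 74.2, 113 and 346 CPM in non-met, and within each pool met was higher, by 0.79, 2.30, 2.88 and 1.68. It was not called (log2 fold change 1.12, adjusted P = 0.751, voomLmFit), and the controls, at 495 and 310.0 CPM, lay within the range of met. *Cxcl12*, which retains haematopoietic stem cells in marrow, had linked differences of both signs (1.07, 1.70, −2.99 and −0.35).

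Antigen presentation genes were mixed. Of 14 MHC class I genes *B2m* and *H2-D1* were called higher (against 0.285% of all genes), and neither was of one direction. *B2m*, the light chain of class I molecules, had a fitted value of 0.80 (adjusted P = 2.10e-05, voomLmFit) but linked differences of −0.11, −0.61, 0.32 and −0.26, and 86.9% of the met weight lay in met 3, without which the adjusted P was 0.712. *H2-D1* lost its call without met 3 (adjusted P = 0.47) and without 6 other single libraries. With the pool as block both had an adjusted P of 1.00. The transporter *Tap1*, the proteasome activator *Psme2* and the peptidase *Erap1* were higher in each linked difference (21.4%, against 7.60% of all genes) without being called, and under RLE scaling *Tap1* alone of these remained so. Of 7 MHC class II genes, *Cd74*, the invariant chain, was called higher (5.62, SE 1.24, adjusted P = 0.0376, voomLmFit; 4.47 and adjusted P = 1.00 with the pool as block) and was of one direction together with *H2-Ab1* (28.6%, against 7.60%). *Cd74* had 132, 171 and 287 CPM in met and 0, 2.89 and 36.1 CPM as the lowest, median and highest in non-met, so the groups stood apart. Of the 9 left-out libraries of these 2 groups, 6 ended its call, with the highest adjusted P of 0.188 without met 3.

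Class II genes are also expressed by macrophages and B cells, which the CD45 gate of the sort is meant to remove. The 12 monocyte and macrophage markers summed to 47.6, 51.4 and 51.6 CPM in met and to 15.9 to 503 CPM in non-met, with *Lyz2* at 0, 0 and 10.4 CPM, *Csf1r* at 0, 34.7 and 0.115 CPM, *Cd68* at 0.441, 0 and 17.6 CPM and *Adgre1* at 0 in the met libraries. *Ly6c2* was present in every met library, at 47.1, 16.7 and 23.5 CPM, and at 1.89 to 69.3 CPM in non-met. The 9 B cell markers summed to 96.9, 0 and 8.95 CPM in met, where the value of met 1 is that of *Cd79a* (at most 1.31 CPM in any non-met library), and *Cd79b* and *Ms4a1* were at 0 in all 3. The part of these cells in the class II values was not tested.

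In the general endothelial list the unpaired calls and the linked differences often parted. The general endothelial list had 6 genes called higher and 1 lower of 20 (against 0.285% and 0.142% of all genes), while 3 were higher and 2 lower in each linked difference (against 7.60% and 5.67% of all genes), and the numbers depended on scaling (1 and 3 with RLE, 4 and 0 with library size). The called members had means of 10.1 to 11.41 log2 CPM, and belong to the abundant genes that hold 45 of the 51 calls. *Pecam1* had 2297, 2595 and 3163 CPM in met and 1131, 1703 and 2427 CPM as the lowest, median and highest in non-met. It rose in the unpaired fit (0.89, SE 0.133, adjusted P = 0.000441, voomLmFit), with linked differences of 0.25, 0.92, 0.10 and 0.60 and an adjusted P of 1.00 with the pool as block. The fitted value of *Pecam1* was 0.22 with the block and 0.591 to 1.287 with 1 library left out, and met 3 held 99.8% of the met weight. *Emcn*, with linked differences of −0.49, 0.43, −0.16 and 1.92, was not called (log2 fold change 0.49, adjusted P = 0.592, voomLmFit), and its fitted value was −0.05 with the block. *Cdh5* (VE-cadherin) and the receptor *Tie1* were called higher, and neither was of one direction under RLE scaling. The call of *Tie1* was lost without met 3 (adjusted P = 0.516) or non-met 2 (0.0519), and that of *Cdh5* without any of 5 libraries, with the highest adjusted P of 0.161 without non-met 1. *Plvap*, *Eng* and *Ptprb* were called higher with at least 1 linked difference below 0, and each lost the call without met 3 (adjusted P = 0.325, 0.57 and 0.0747). *Plvap* and *Ptprb* lost it without non-met 2 as well (0.0505 and 0.0757), and *Eng* without 4 other libraries, with the highest of these at 0.417 without non-met 2. With the pool as block *Cdh5*, *Tie1*, *Plvap*, *Eng* and *Ptprb* each had an adjusted P of 1.00, and the fitted value of *Plvap* was −0.23. *Ushbp1* fell (−1.19, SE 0.16, adjusted P = 9.83e-05, voomLmFit), with 801, 957 and 598 CPM in met below the lowest non-met library at 1124 CPM. That call was lost without met 3 (adjusted P = 0.326) and with the pool as block (adjusted P = 1.00), and with library size scaling *Ushbp1* was not of one direction.

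Tip cell and sprouting genes mark the cells at the front of new vessel branches. Of 21 tested, *Cd34* and *Mcam* were called higher (against 0.285% of all genes; *Mcam* not without any of 7 libraries, with the highest adjusted P of 0.436 without met 3, nor with the block, adjusted P = 1.00), 6 were higher in each linked difference and 2 lower (28.6% and 9.52%, against 7.60% and 5.67%; 5 and 2 with RLE, 7 and 0 with library size scaling), and the list median was 0.48, against 0.08 over all genes. *Cd34* (chr1:194938821-194961292), a sialomucin enriched in sprouting cells, had 1244, 1362 and 1575 CPM in met and 442, 587 and 679 CPM as the lowest, median and highest in non-met. Met was therefore near the same level in 3 pools and well clear of non-met, and the controls were lower still at 383 and 186 CPM. The linked differences of 0.93, 1.49, 1.00 and 1.56 exceed those between non-met libraries of one pool, 0.49 and 0.56. *Cd34* rose in the unpaired fit (1.31, SE 0.203, adjusted P = 0.000721, voomLmFit) and kept its call when any 1 library was left out, and missed it with the pool as block (1.09, adjusted P = 1.00) and in limma-trend (adjusted P = 0.129). *Igfbp3*, which binds insulin-like growth factors, had 2362, 2023 and 1330 CPM in met and 142, 682 and 1857 CPM in non-met. Limma-trend called it (adjusted P = 0.018) and voomLmFit did not (0.81, adjusted P = 0.751). With 1 library left out the value of *Igfbp3* was 0.736 to 1.386, and 2 of 26 alternative settings called it, limma-trend among them. *Angpt2*, a Tie2 ligand that loosens vessels, had 143, 49.1 and 82.8 CPM in met and 0, 18.2 and 56.0 CPM in non-met, with linked differences of 2.37, 1.34, 0.15 and 3.15 and no call (adjusted P = 0.671, voomLmFit). *Kdr* (VEGF receptor 2) had linked differences of 0.69, 1.12, 0.01 and 0.21, and was not of one direction with RLE scaling.

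Sinusoidal markers lay in the other direction within pools. None of 11 was called, 4 were lower in each linked difference (*Stab2*, *Flt4*, *Il6st* and *Dnase1l3*; 36.4% against 5.67% of all genes) and 1, *Maf*, was higher. The list median was −0.74 and −0.65 in pool 2, −0.37 in pool 3 and −0.47 in pool 4, and 0.39 and 0.05 between non-met libraries of one pool, although it was −0.15 in the unpaired fit. *Il6st* (gp130, the signal-transducing receptor of the interleukin-6 family) had 1361, 1717 and 2020 CPM in met and 1593, 2301 and 4380 CPM in non-met. The groups overlapped through non-met 1, the lowest non-met library, and met was lower within each pool by −0.74, −0.69, −0.90 and −1.12. The fitted value was −0.15 without the block (adjusted P = 0.816) and −0.90 with it (adjusted P = 1.73e-05, voomLmFit), and limma-trend with the block gave an adjusted P of 0.0555. Without non-met 2 the unpaired value was 0.27 (adjusted P = 0.586). *Adamts5*, a protease of the matrix, was called lower with the block in voomLmFit (−1.14, adjusted P = 0.00777) and not without it (−0.29, adjusted P = 0.739) or in limma-trend with it (adjusted P = 0.999), with linked differences of −0.56, −0.38, −1.56 and 0.13. *Stab2*, a scavenger receptor of sinusoids, had 935, 1184 and 1331 CPM in met and 920.0, 1644 and 1844 CPM in non-met, with linked differences of −0.87, −0.76, −0.64 and −0.47. With library size scaling *Flt4* was not of one direction. Of 15 arterial markers none was called and 1, *Acvrl1*, was lower in each linked difference, near the background share (6.67%, against 5.67% of all genes).

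**Figure D4:**
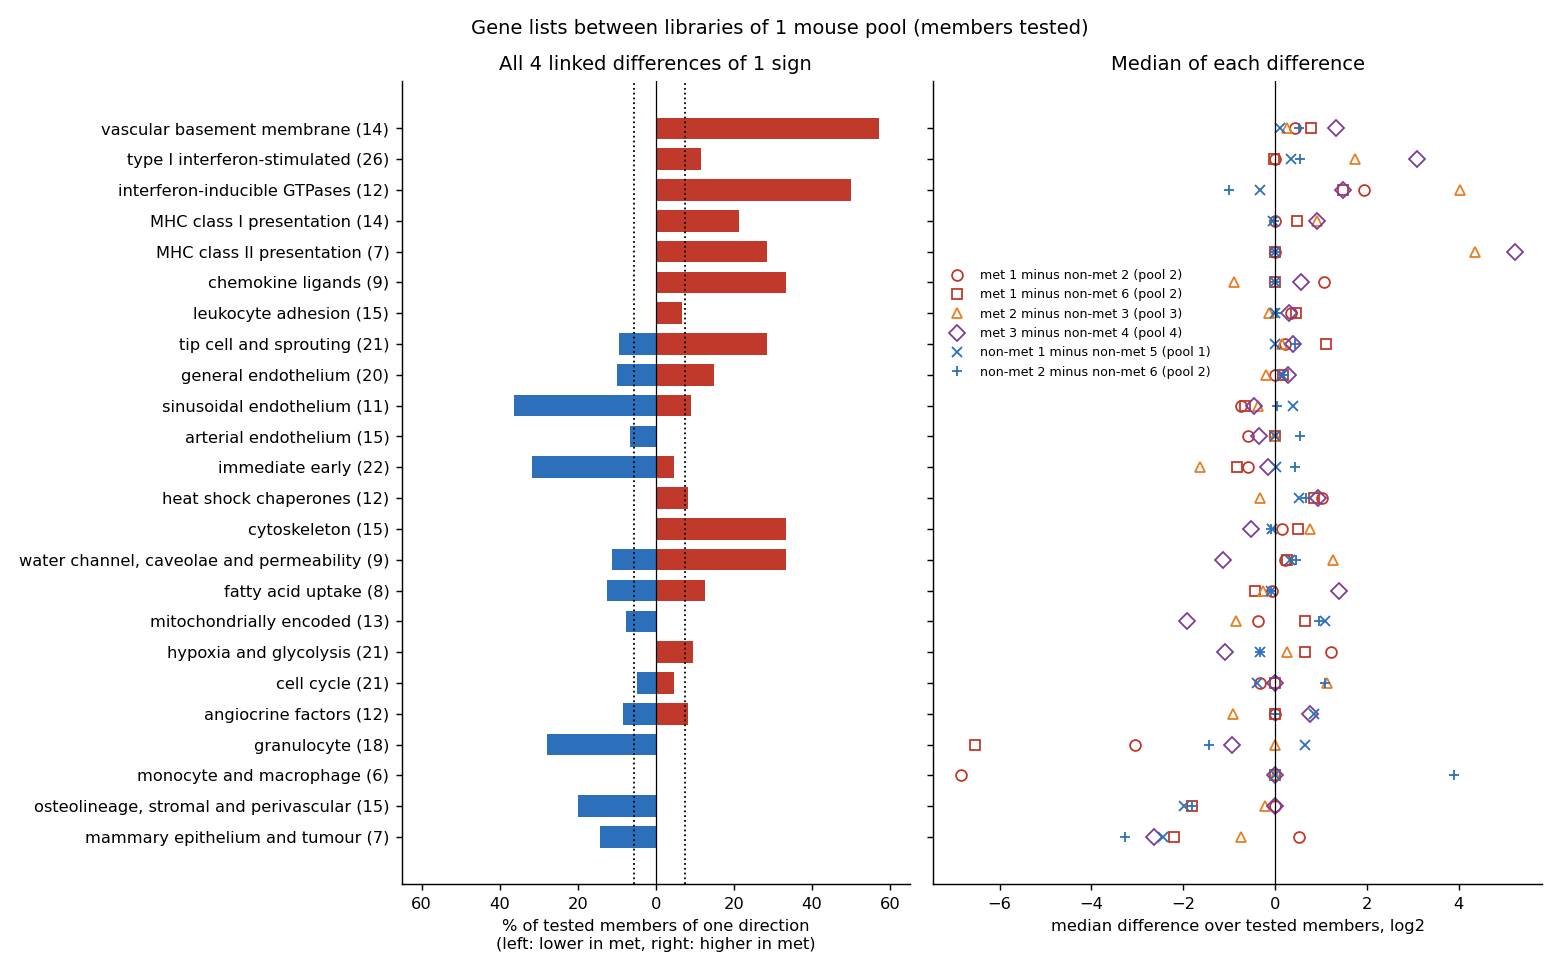
Left, share of tested members of each gene list with 4 linked differences of 1 sign (bars, %; dotted lines, 7.60% and 5.67% of all genes). Right, median over tested members of each linked difference (open symbols) and of the differences between non-met libraries of 1 pool (crosses), log2, where basement membrane genes and GTPases lie right of 0 and sinusoidal genes left of 0 in each linked difference.

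Immediate early genes, which are transcribed within minutes of a stimulus, lay mostly lower in met. Of 22 tested 3 were called lower (*Fos*, *Jun* and *Junb*, against 0.142% of all genes) and none higher, 7 were lower in each linked difference (31.8% against 5.67% of all genes; 9 with RLE scaling and 7 with library size scaling) and 1 was higher, and the median was −0.90. Linked medians were −0.58 and −0.84 in pool 2, −1.63 in pool 3 and −0.16 in pool 4, and those between non-met libraries of one pool 0.03 and 0.43. *Junb*, a subunit of the AP-1 factor, had 952, 669 and 952 CPM in met and 1412, 1613 and 2341 CPM as the lowest, median and highest in non-met. The groups did not overlap, and the controls, at 2116 and 2245 CPM, lay in the upper range of non-met. *Junb* fell without the block (−0.80, SE 0.163, adjusted P = 0.0172) and with it (−1.31, adjusted P = 0.00645, both voomLmFit), and in limma-trend without the block (adjusted P = 0.00542) but not with it (adjusted P = 0.182). Leaving out any met library ended the call, with an adjusted P of 0.26 without met 3. *Fos* fell in both voomLmFit fits (adjusted P = 2.48e-06 and, with the block, 7.74e-07) and in both limma-trend fits (6.46e-05 and 0.0253), with linked differences of −0.42, 0.08, −1.67 and −1.24. Its unpaired call was lost without met 1 (adjusted P = 0.0913) or met 3 (0.0747), and under both other scalings it was lower in each linked difference. *Jun* was called lower (adjusted P = 0.00457, voomLmFit) although 3 of its 4 linked differences were above 0, and lost that call without any of 5 libraries, with the highest adjusted P of 0.318 without non-met 2, and with the block (adjusted P = 1.00).

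The mRNA-decay factor *Zfp36*, the nuclear receptor *Nr4a1*, *Klf4* and *Ier2* were lower in every met than in every non-met library and were not called by voomLmFit. *Zfp36* had 211, 157 and 319 CPM in met and 499, 647 and 770.0 CPM in non-met, with linked differences of −1.69, −1.86, −2.06 and −1.0 (adjusted P = 0.207, voomLmFit). DESeq2 called *Zfp36* (adjusted P = 0.00031), *Nr4a1* (0.00291) and *Klf4* (0.0129), and not *Ier2* (0.0803). *Nr4a1* had 144, 209 and 135 CPM in met and 275, 518 and 708 CPM in non-met, and *Klf4*, which keeps endothelium quiescent, 360.0, 331 and 772 CPM and 797, 1008 and 1634 CPM. *Klf6* was the member higher in each linked difference, by 0.22 to 2.13, and not under RLE scaling. The cAMP response element TGACGTCA was in 2 of 23 promoter windows of the list (8.70%, against 1.79% of all), and the AP-1 site TGANTCA in none of them (7.81% of all), on both strands. Of 12 heat shock chaperone genes none was called and 1, *Bag3*, was higher in each linked difference, near the background share (8.33%, against 7.60% of all genes).

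Cytoskeletal and permeability genes included further calls. *Vim*, the intermediate filament vimentin, had 2422, 1869 and 1539 CPM in met and 487, 909 and 1105 CPM as the lowest, median and highest in non-met, compared with 344 and 427 CPM in the controls. Met stood clear of non-met, by 1.45, 1.13, 1.00 and 0.67 within pools, and *Vim* rose without the block (0.87, SE 0.172, adjusted P = 0.0137) and with it (1.19, adjusted P = 0.00514, both voomLmFit) and in limma-trend without it (adjusted P = 0.0397) but not with it (adjusted P = 0.266). Without non-met 1 or non-met 2 the adjusted P was 0.0546 and 0.0785. Of 15 cytoskeletal genes 5 were higher in each linked difference, *Vim*, *Actg1*, *Tpm4*, *Tuba1a* and *Lmna* (33.3%, against 7.60% of all genes; 4 with RLE scaling), whereas 9 of the 15 had an unpaired value below 0. The list median was −0.21 in the unpaired fit and 0.39 with the block, and the linked medians were 0.16 and 0.50 in pool 2, 0.75 in pool 3 and −0.53 in pool 4. *Actb* was called lower (−1.30, adjusted P = 1.11e-07, voomLmFit) on the strength of pool 4 (−2.01), the other linked differences being 0.28, 0.19 and 0.46, and had an adjusted P of 0.47 without met 3 and of 1.00 with the block. *Aqp1*, a water channel of endothelium, rose (1.39, SE 0.267, adjusted P = 0.0101, voomLmFit; adjusted P = 0.018, limma-trend), with 1159, 1754 and 1925 CPM in met above the 308, 718 and 1002 CPM of non-met, and missed the threshold with the block (0.72, adjusted P = 1.00), without non-met 1 (0.107) and without met 3 (0.161). *Fabp4*, the fatty acid-binding protein of capillaries, had 2434, 1437 and 3904 CPM in met and 2123, 4096 and 6016 CPM in non-met. It was not called without the block (−0.04, adjusted P = 0.992) and fell with it (−0.97, adjusted P = 0.000659, limma-trend), with linked differences of −0.69, −0.88, −2.07 and −0.13. With library size scaling *Fabp4* was not of one direction, and its unpaired value was above 0 without control 1 (0.91, adjusted P = 1.01e-18), control 2 (0.94, adjusted P = 5.40e-11) or non-met 2 (0.87, adjusted P = 1.34e-06).

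Mitochondrially encoded genes were the largest group of calls, and in pool 2 their direction changed with the non-met library that met 1 was set against. Of the 13, 10 were called lower (against 0.142% of all genes) and 1, *CYTB*, higher, and these belong to the abundant genes that hold 45 of the 51 calls. The list median was −1.29 in the fit and −0.38, 0.65, −0.86 and −1.93 in the linked differences, positive against non-met 6. *ND3* was the sole member lower in each of them (−1.06, −0.98, −0.53 and −2.05), and under the other scalings *ND5* was too. Mitochondrial reads took 9.08%, 6.41% and 4.05% of the counts in met 1, 2 and 3, and 6.46% to 16.7% in non-met. Between non-met libraries of one pool the list median was 1.09 and 0.95, larger in size than in pools 2 and 3 and smaller than in pool 4. *CYTB* had linked differences of −0.19, 0.78, −0.68 and −1.69 and 99.8% of the met weight in met 1, and its fitted value was −0.61 without met 1 and −0.65 with the pool as block. With the block *ND4L* and *ATP8* were no longer called (adjusted P = 1.00 and 0.29). *COX1* was called higher with it in voomLmFit (0.49) and not without it (−0.49, adjusted P = 0.836) or in limma-trend with it (adjusted P = 0.999), although 3 of its linked differences were below 0 (−0.32, 0.56, −0.86 and −1.7). The part of RNA quality in these values was not tested.

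Granulocyte markers had a lower summed level in met in each linked pool. *S100a8*, a calcium-binding alarmin of neutrophils, had no read in met 1 and met 2 and 12.2 CPM in met 3, and 66.9, 567 and 952 CPM as the lowest, median and highest in non-met. The groups did not overlap, and the linked differences were −10.3, −11.4, −8.27 and −2.43 by the scale of log2 CPM with a prior count, on which values against 0 reads depend. *S100a8* was not called by the unpaired voomLmFit (adjusted P = 0.0669) or by voomLmFit with the block (adjusted P = 1.00), and fell in limma-trend without and with the block (adjusted P = 0.000184 and 0.006). *S100a9*, its partner, had 158, 35.2 and 22.8 CPM in met and 126, 1117 and 2523 CPM in non-met. Within pools it was lower in met by −2.49, −3.99, −1.82 and −4.10, and it fell in limma-trend with the block (−3.06, adjusted P = 0.000357) and was not called by voomLmFit without (−4.61, adjusted P = 0.684) or with it (adjusted P = 1.00). Of 18 granulocyte genes tested 5 were lower in each linked difference (27.8%, against 5.67% of all genes) and none higher. The list median was −3.05 and −6.54 in pool 2, 0.00 in pool 3 and −0.94 in pool 4, and 0.65 and −1.44 between non-met libraries of one pool. *Mmp9* was lower in met in pool 2 but higher in pool 3 (26.7 against 5.91 CPM) and pool 4 (108 against 9.05 CPM). The 20 listed markers summed to 207, 95.5 and 162 CPM in met and to 3910, 2350, 404, 720.0, 3420 and 5380 CPM in non-met 1 to 6, compared with 180.0 and 388 CPM in the controls. Pools 1 and 2 thus held more of them than pools 3 and 4, and every met library lay within or below the range of the controls. *Ly6g*, which defines neutrophils, was at most 0.53 CPM in any library, and *Elane* was at 0 in the met libraries and in non-met 3 to 5. The CD45 gate of the sort is meant to remove these cells. The part of granulocytes in the difference was not tested.

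**Figure D5:**
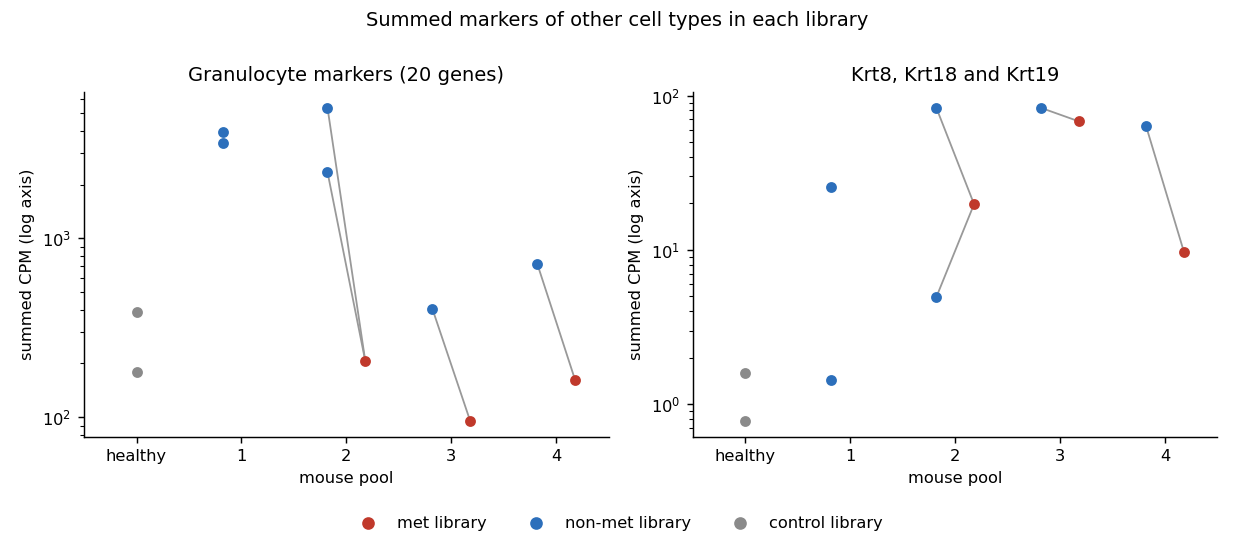
Summed level (CPM, log axis) of 20 granulocyte markers and of 3 keratins in each library by mouse pool, with lines between libraries of the same animals. The granulocyte sum is lower in met in each linked pool, and keratins show no such order.

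No member of the other marker lists was called by the unpaired voomLmFit. Of 15 osteolineage, stromal and perivascular genes 3 were lower in each linked difference (against 5.67% of all genes), among them *Col1a2* at 0.881, 0.758 and 184 CPM in met and 60.6, 193 and 404 CPM in non-met (adjusted P = 0.0136, limma-trend; 0.664, voomLmFit). With library size scaling *Col1a2* was not of one direction. *Col1a1*, its partner chain, had 55.9, 77.9 and 35.0 CPM in met and 10.9 to 152 CPM in non-met, and was higher in met in pools 3 and 4. The list median was 0.00 and −1.80 in pool 2, −0.21 in pool 3 and 0.00 in pool 4. *Itga2b*, the platelet integrin chain, was higher in each linked difference with at least 29.9 CPM in each met library and a non-zero value in 1 non-met library, non-met 2, at 26.9 CPM. Of 7 mammary epithelial genes tested none was higher in each linked difference. Hypoxia and glycolysis (2 of 21 higher), cell cycle (1 higher and 1 lower of 21) and angiocrine factors (1 and 1 of 12) were near the background shares of 7.60% and 5.67%, and the list for leukocyte adhesion had 1 of 15 higher. The angiocrine gene *Lrg1* was called lower with the block in voomLmFit (−1.41, adjusted P = 4.52e-15) and not without it (0.63, adjusted P = 0.0607) or in limma-trend with it (adjusted P = 0.999). Its unpaired value was −0.73 without met 3 and 0.78 without control 1, with linked differences of −0.92, −0.72, −1.82 and 1.29.

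Among the calls of one direction, the 4 genes whose smallest linked difference was largest were the chemokine genes *Cxcl10* and *Cxcl11* and, outside the lists, *Il20rb* and *Xpo4*. *Il20rb*, a subunit of receptors for interleukin-20 cytokines, had 165, 20.1 and 52.8 CPM in met and no read in 5 of the 6 non-met libraries, with 1.59 CPM in non-met 5. It was called (6.77, SE 1.38, adjusted P = 0.0174, voomLmFit), not with the block (7.32, adjusted P = 1.00), and 7 of the 9 left-out libraries ended the call (adjusted P up to 0.10). *Xpo4*, a nuclear transport receptor, had 211, 33.2 and 60.5 CPM in met and at most 1.87 CPM in non-met, where control 1 had 20.8 CPM. It was called (6.03, SE 1.32, adjusted P = 0.0371, voomLmFit) and lost the call with the block (6.29, adjusted P = 1.00) and without any of 8 of the 9 libraries (adjusted P up to 0.144). Genes not called by voomLmFit whose groups stood apart included *Emilin2*, an elastin-associated glycoprotein, with 196, 27.1 and 11.1 CPM in met and no read in any non-met library (adjusted P = 0.134). In the other direction *Aldh16a1* had 0, 0.758 and 0 CPM in met and 20.4 to 158 CPM in non-met (adjusted P = 0.0826), and *Rbpj*, the transcription factor of Notch signalling, 2.20, 2.46 and 8.15 CPM in met and 15.1, 35.9 and 327 CPM in non-met (adjusted P = 0.751, all voomLmFit). DESeq2 called these 3, with adjusted P of 0.00185 for *Emilin2*, 2.11e-06 for *Aldh16a1* and 0.00358 for *Rbpj*. Among the 506 abundant genes 48 were higher and 50 lower in each linked difference, and 13 of these were also called by the unpaired fit. *Malat1*, a nuclear non-coding RNA chosen after its values were seen, had 293, 699 and 178 CPM in met and 490.0, 1089 and 3376 CPM in non-met. It was not called by the unpaired voomLmFit (−1.43, adjusted P = 0.751; −2.412 to −0.579 with 1 library left out) and fell with the block (−1.86, adjusted P = 0.000731, limma-trend), with linked differences of −0.74, −1.37, −0.57 and −4.24.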

How the data were processed

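RNA was measured in 11 bulk libraries of sorted endothelial cells made with a low-input kit. The authors aligned 75-base reads to mm10 and deposited raw read counts per Entrez gene (featureCounts). Those counts were used as deposited. Names came from RefSeq, rows for ribosomal RNA, predicted and unnamed genes were left out (1.94% to 15.7% of the counts of a library), and 11948 genes passed filterByExpr. The main fit was voomLmFit (edgeR 4.0.16, limma 3.58.1, R 4.3.3) with TMM and sample weights over 3 groups, with Benjamini-Hochberg adjustment and a threshold of 0.05. Limma-trend, edgeR's quasi-likelihood test, DESeq2 1.42.0, mouse pool as a replicate block (28 genes called) or as a random block (52), other scalings and filters, and leaving out each library were alternatives.

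The labels place same-numbered pools in the same animals, which is the source of the pairing. Replicate numbers themselves do not pair libraries. Since libraries share pools, p-values measure the spread between libraries, part of which may be technical. Linked differences were computed in Python 3.11.15. Genes named were the checks (the type IV collagens, *Cxcl10*, *Cxcl11*, *S100a8*, *Pecam1* and *Emcn*), up to 8 called genes of one direction per sign by smallest linked difference, up to 8 uncalled ones with groups apart and a mean of 10 CPM or more, and list members called or among the 3 of highest level. Other list members of one direction, and *Malat1*, were named after their values were seen. The genes and lists were chosen with earlier results of these data known. VoomLmFit, limma-trend and the quasi-likelihood test were also run on simulated counts, and the outcome is not given here.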

Additional observations from a re-analysis of the deposited data

Results flagged for a closer look

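Among the 42 groups of 6 non-met values examined, 7 held 1 library far from the other 5 by Dixon's criterion. Chance gives about 1 in 20 for values without ties, to which this count cannot be compared, since in 4 of the 7 the other 5 libraries had no read and any read had to stand apart. *Il20rb* was at 0.9619 log2 CPM in non-met 5 and at −1.485, the value of no read, in the rest. *Dok1* was at 3.255 log2 CPM in non-met 1. *Rab27a* and 2410022M11Rik were both at −0.5814 log2 CPM and *Lsm1* at −0.02996 log2 CPM in non-met 3, with no read elsewhere in non-met, which is 1 read for the first pair and 2 for *Lsm1*, below the floor of 3 reads. *Mtfmt* was at 1.115 log2 CPM in non-met 4, the shallowest library, and at 5.41 to 7.298 in the others. The 9 B cell markers summed to 120.5 CPM in non-met 2 and to at most 32.67 CPM in the other non-met libraries.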

How the results depend on the processing

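The number of genes called (51, 34 of them higher) was 9 (3 higher) with limma-trend, 10 (3 higher) with the quasi-likelihood test, 324 (21 higher) with DESeq2, 24 with libraries of one pool and group summed, 17 with linked pools alone and 79 without the filter, and 16 to 87 when 1 library was left out. With RLE scaling 24 of 45 calls were higher. With the mouse pool as random block the number was 52 (35 higher). With the mouse pool as replicate block the number was 28 in voomLmFit and 7 in limma-trend, and the calls it ended or made among the genes named in the report are given beside them. The 908 genes higher in each linked difference became 302 at a minimum of 1 and 48 among abundant genes (a limit chosen after seeing the data), and 1191 to 2860 with 1 library left out, by construction since fewer differences must agree. The 677 lower became 1056 with non-met 2 and 6 averaged, 199 at a minimum of 1, 50 among abundant genes and 938 to 1964 with 1 library left out.

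Among the genes refitted under each setting, fitted values changed sign as follows, and the cause was not tested. *Col4a1* had −0.007 without the filter and −0.02 to 1.221 with 1 library left out (−0.02 without control 1, −0.001 without control 2). *Emcn* had −0.045 with the replicate block. *Selenop*, not called with the replicate block (adjusted P = 0.367), had 0.023 with library size scaling and −0.505 to 0.013 with 1 library left out. *B2m* had −0.001 with the quasi-likelihood test, −0.202 with DESeq2 and −0.123 with the replicate block in limma-trend, and *Plvap* −0.23 with the replicate block in voomLmFit. *Il6st* had −0.42 to 0.271 with 1 library left out. *Fabp4* had 0.558 with RLE scaling, 0.818 with library size scaling, 0.941 without the filter and −0.912 to 0.935 with 1 library left out. *CYTB* had −0.767 with limma-trend, −0.735 with the quasi-likelihood test, −0.873 with DESeq2, −0.649 and −0.587 with the replicate block (voomLmFit and limma-trend), −0.711 with libraries summed, −0.441 without the controls, −1.548 with linked pools alone, −0.035 with RLE and −0.053 with library size scaling, and −0.608 to 0.779 with 1 library left out. *COX1* had 0.493 with the replicate block in voomLmFit, 0.296 without the controls and −0.657 to 0.47 with 1 library left out. *Lrg1* had −0.32 with limma-trend, −0.22 with the quasi-likelihood test, −0.359 with DESeq2, −1.407 and −0.481 with the replicate block (voomLmFit and limma-trend), −0.015 with linked pools alone and −0.728 to 0.775 with 1 library left out. Depth limits low genes most, since 3 reads are 4.76 CPM in non-met 4.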
